A study of Glycine max with 10 samples.

Results

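The values reported here are for 7 of the 55983 genes in the soybean leaf count table, namely the 3 genes listed for the Rubisco small subunit (Glyma.13G046200, Glyma.19G046600 and Glyma.19G046800) and the 4 listed for Rubisco activase (Glyma.02G249600, Glyma.18G036400, Glyma.11G221000 and Glyma.14G067000). They were taken by identifier from a list drawn up when earlier results of these data were known. All 7 had over 0.5 CPM (counts scaled to the library total) in all 10 libraries and were among the 37468 genes retained for testing. The chromosome of a gene is the number before the G in its identifier, in the Wm82.a2.v1 annotation.

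The study followed soybean (Glycine max) leaves under the soybean aphid in a greenhouse, in a cultivar labelled resistant (LD12-15813Ra, which carries the aphid resistance gene Rag1) and a cultivar labelled susceptible (LD12-15838R). Inducer plants received 50 aphids of biotype 2, which is virulent on Rag1, and 15 aphids of the avirulent biotype 1 as a response population. Each cultivar gave an inducer library at day 11 and at day 1, 4 in all. Each cultivar also gave 1 library of plants that carried only the 15 biotype 1 aphids, at day 11, so that there were 2 of these, and control plants without aphids gave 4, from both days. Each library was RNA of 3 replicates pooled before sequencing, so a condition has 1 library and no difference between 2 single libraries has a replicate check. The p-values below set a difference against the spread that a model over all libraries leaves unexplained. The model gives a treatment the same effect in both cultivars and on both days. Treatment effects that differ between them therefore count as spread, which is not the spread between plants.

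Rubisco is the chloroplast enzyme that fixes carbon dioxide in the Calvin cycle. Its large subunit is encoded in the chloroplast genome and its small subunit in the nucleus by a small gene family, and the small subunits are made in the cytosol and imported into the chloroplast. Rubisco activase is a nuclear-encoded chloroplast ATPase that frees the active sites of Rubisco from bound sugar phosphates. Transcripts of both families are typically among the most abundant in green leaves and respond to light, and the transcripts of activase follow a daily rhythm in many plants.

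Library totals lay between 23394065 and 25665558 estimated counts, a 1.10-fold range, and edgeR's TMM factors, which correct for a few genes taking many counts, lay between 0.772 and 1.15. The lowest factor was that of the library labelled as resistant day 1 control and the highest that of the library labelled as resistant day 1 inducer. The cultivar labels could not be checked against a gene of known state. Among 96 genes with an 8-fold gap between 2 sets of libraries, 0 parted them by labelled cultivar, 59 by the combination of day and labelled cultivar, and 22 by the same combination once the library labelled as resistant day 1 control was moved across. Whether some libraries carry the label of another could not be settled from these data. All libraries are named by their labels below. The doubt reaches the comparisons between cultivars, those between days within a cultivar and the pair of resistant day 1 libraries. It also reaches every fit over all libraries, since cultivar and day enter the model by label. The marker genes of leaf and of other tissues were to be found by gene description and were not looked up, because 0 identifiers matched the reference gene table. Leaf as the tissue rests on the labels.

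The 7 genes together took between 1.94% and 6.0% of all counts of a library. Other copies of either family were not looked up, so all sums and shares here are of the listed genes only. The 3 small subunit genes took 1.56%, 2.61% and 2.63% of the counts in the resistant libraries of day 11 with the inducer, with biotype 1 alone and in the control, against 2.40%, 1.51% and 4.05% in the susceptible libraries of the same day in the same order. At day 1 they took 1.13% with the inducer and 3.97% in the control of the resistant cultivar, against 3.59% and 2.24% in the susceptible cultivar. The lowest and the highest share thus lay 3.60-fold apart, in the library labelled as resistant day 1 inducer and the library labelled as susceptible day 11 control. The widths of the 95% Wilson intervals cover counting error only and were small beside these differences (1.12% to 1.13% for the lowest share and 4.04% to 4.06% for the highest).

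The 4 activase genes took 0.883%, 1.41% and 1.62% of the counts in the resistant libraries of day 11 with the inducer, with biotype 1 alone and in the control, against 1.85%, 1.20% and 1.91% in the susceptible libraries in that order. At day 1 their share was 0.810% with the inducer and 2.03% in the control of the resistant cultivar, against 1.93% and 1.31% in the susceptible cultivar. The range was 2.51-fold and began in the same library as that of the small subunit, the one labelled as resistant day 1 inducer. Its highest value was in the library labelled as resistant day 1 control. Divided by TMM-corrected sizes in place of totals, the ranges widened to 5.26-fold for the small subunit and 3.75-fold for activase, and the highest small subunit share was then that of the library labelled as resistant day 1 control (5.14%), above the one labelled as susceptible day 11 control (4.46%). Over the 10 libraries the log2 TMM factor had r of -0.85 with the small subunit share and -0.86 with the activase share on the log2 scale, and the factors are themselves computed from the same counts. In leaf RNA of this kind, fewer cells that express a gene and less RNA per cell cannot be told apart.

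**Figure D1:**
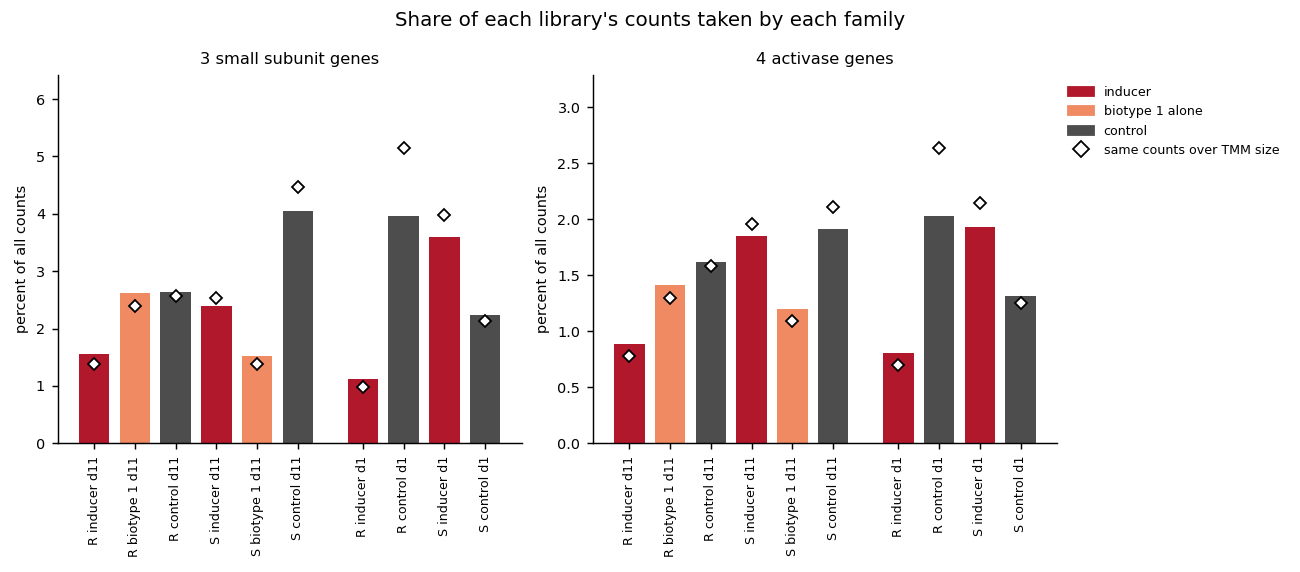
Bars show the percent of all estimated counts of each library (R labelled resistant, S labelled susceptible, d11 and d1 the sampling days) taken by the 3 small subunit genes (left) and the 4 activase genes (right), and diamonds the same counts over TMM-corrected library sizes. The library labelled as resistant day 1 inducer has the lowest bar in both panels, 1.13% and 0.810%, and no error bar is drawn because a condition has 1 library.

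Among the small subunit genes, Glyma.19G046800 had the largest count of all genes in 8 of the 10 libraries and the second largest in the others. In the resistant cultivar at day 11 it had 7332 CPM with the inducer, 11835 CPM with biotype 1 alone and 12459.5 CPM in the control. The susceptible libraries of that day had 11743 CPM with the inducer, 7242 CPM with biotype 1 alone and 19284 CPM in the control. At day 1 it had 5470 CPM with the inducer and 18864 CPM in the control of the resistant cultivar, against 17420.5 and 10899.8 CPM in the susceptible cultivar. The values of the inducer libraries and those of the controls overlapped, because the susceptible inducer library of day 1 lay above 2 of the 4 controls.

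Glyma.13G046200 had the widest range of the 7 genes, 5.04-fold. With the inducer it had 3574 CPM (resistant, day 11), 5491 CPM (susceptible, day 11), 2278 CPM (resistant, day 1) and 10117 CPM (susceptible, day 1). With biotype 1 alone it had 7453 CPM in the resistant and 3647 CPM in the susceptible cultivar, and in the controls 7081 CPM (resistant, day 11), 10471 CPM (susceptible, day 11), 11479 CPM (resistant, day 1) and 5710 CPM (susceptible, day 1). The order of the libraries followed that of Glyma.19G046800 closely, with Pearson's r of 0.99 between their log2 CPM values over the 10 libraries. Its rank by count within a library ran between 2 and 23, with the rank of 23 in the library labelled as resistant day 1 inducer.

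The third small subunit gene, Glyma.19G046600, had the narrowest range of the 3, 3.06-fold. It had 4698 CPM (resistant, day 11), 6756 CPM (susceptible, day 11), 3518 CPM (resistant, day 1) and 8368 CPM (susceptible, day 1) with the inducer. With biotype 1 alone it had 6842 CPM in the resistant and 4259 CPM in the susceptible cultivar. The controls had 6800 CPM (resistant, day 11), 10753 CPM (susceptible, day 11), 9360 CPM (resistant, day 1) and 5765 CPM (susceptible, day 1). Glyma.19G046600 and Glyma.19G046800 lie close together on chromosome 19 by their identifiers. Reads that fit several near-identical transcripts were divided among them by Salmon, so the split between small subunit genes is less certain than their sum.

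**Figure D2:**
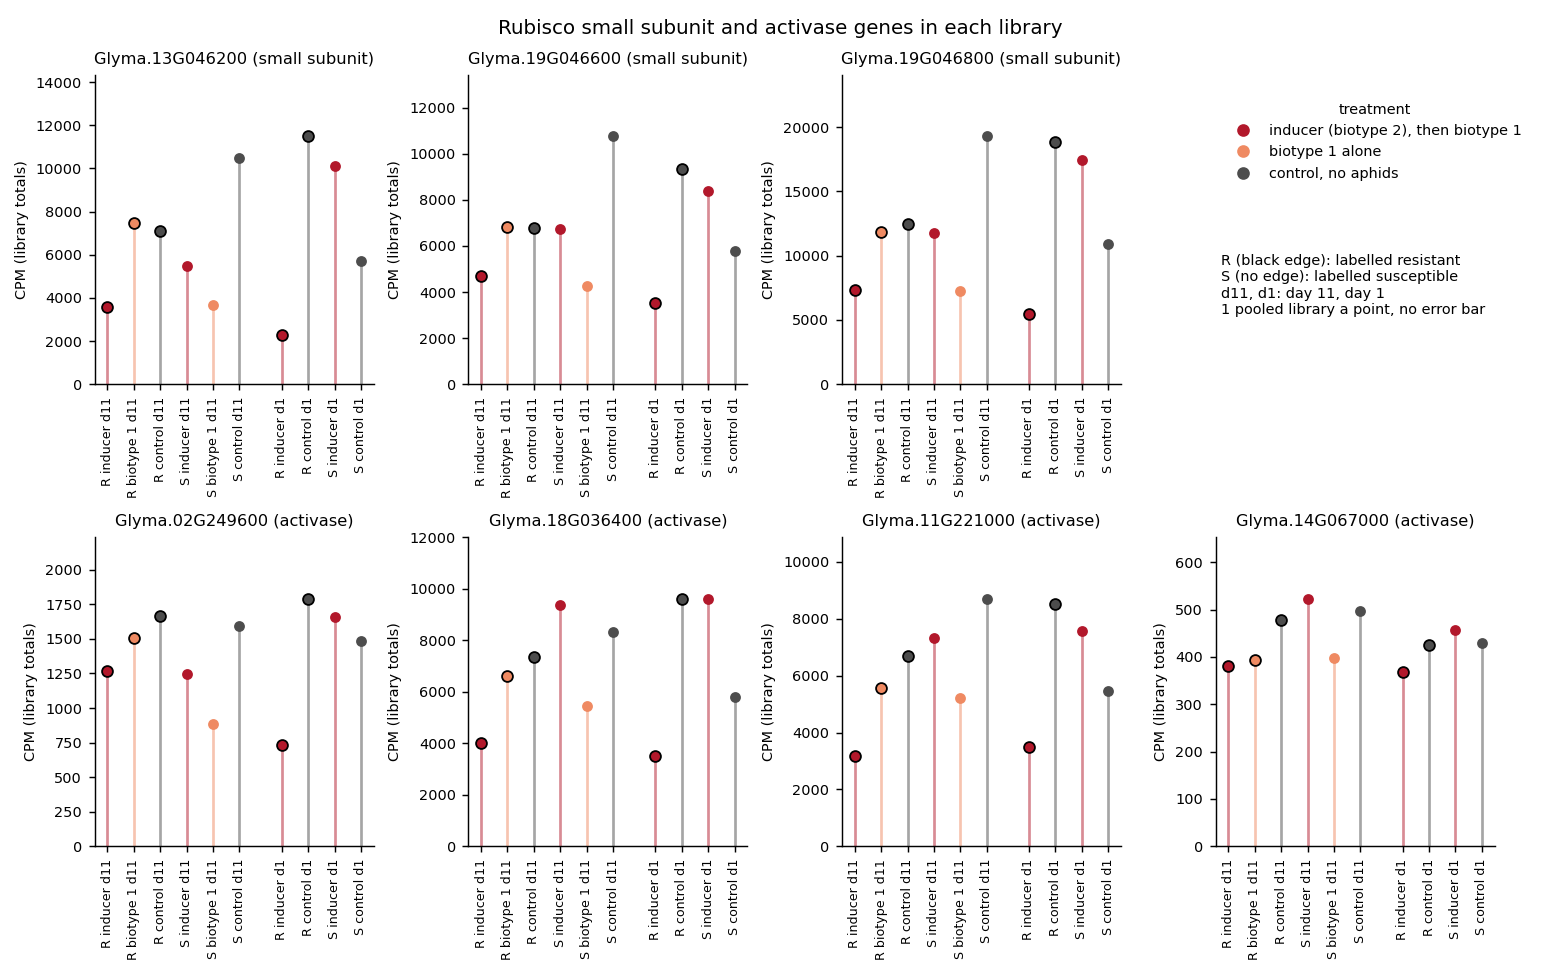
Each point is the CPM of a gene in 1 pooled library, with library totals as the denominator and a separate axis from 0 for each gene. The 3 small subunit genes (top row) share their shape, with the lowest point in the library labelled as resistant day 1 inducer, while Glyma.14G067000 (bottom right) stays between 368 and 523 CPM.

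Of the activase genes, Glyma.18G036400 had 4002 CPM (resistant, day 11), 9383 CPM (susceptible, day 11), 3511 CPM (resistant, day 1) and 9617 CPM (susceptible, day 1) with the inducer. With biotype 1 alone it had 6625 CPM in the resistant and 5467 CPM in the susceptible cultivar, and the controls had 7369, 8334, 9607 and 5783 CPM in the order of the inducer libraries just given. The inducer values were thus low in both resistant and high in both susceptible libraries, and the controls lay between, except that the resistant control of day 1 was above the susceptible inducer library of day 11. Glyma.11G221000 had the same split, with 3178 and 3486 CPM (resistant, day 11 and day 1) and 7316 and 7582 CPM (susceptible, day 11 and day 1) with the inducer. Its values were 5580 CPM (resistant) and 5221 CPM (susceptible) with biotype 1 alone, and 6682, 8708, 8502 and 5446 CPM in the controls in the order resistant day 11, susceptible day 11, resistant day 1 and susceptible day 1. All its controls lay above both resistant inducer libraries, and 2 of the 4 lay above both susceptible ones. These 2 genes had r of 0.96 over the 10 libraries, the highest among the activase genes.

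Glyma.02G249600 had 1266 CPM (resistant, day 11), 1244 CPM (susceptible, day 11), 731 CPM (resistant, day 1) and 1660 CPM (susceptible, day 1) with the inducer. It had 1504 CPM in the resistant and 886 CPM in the susceptible cultivar with biotype 1 alone, and 1664, 1593, 1791 and 1483 CPM in the controls in the same order of libraries. Unlike Glyma.18G036400, it had nearly equal values in the inducer libraries of day 11 of both cultivars. Its values followed those of the small subunit gene Glyma.13G046200 (r of 0.91) more closely than those of Glyma.18G036400 (0.74) or Glyma.11G221000 (0.68). These coefficients describe 10 libraries that share their totals as denominators, and they were 0.96, 0.85 and 0.82 with TMM-corrected sizes.

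Glyma.14G067000 differed least between libraries. It had 382 CPM (resistant, day 11), 523 CPM (susceptible, day 11), 368 CPM (resistant, day 1) and 457 CPM (susceptible, day 1) with the inducer. It had 393 CPM in the resistant and 399 CPM in the susceptible cultivar with biotype 1 alone, and 477, 497, 425 and 429 CPM in the controls in that order. The SD of its log2 CPM over the 10 libraries was 0.17, against a median of 0.42 for the 3416 genes averaging 50 CPM or more, of which 3.13% had a smaller SD. With TMM-corrected sizes its SD was 0.31 and 27.8% of those genes had a smaller one. For Glyma.13G046200 the SD of log2 CPM was 0.77, and 86.4% of the same genes had a smaller SD. The remaining 5 genes had SDs between 0.42 and 0.62, with 50.4% to 78.7% of genes below them.

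The counts behind all these values lay between 8737 and 464024, so that the 95% counting interval of a value was within 0.288% to 2.1% of it. Counting error is therefore small beside every difference of 1.1-fold or more between libraries, but it holds neither the spread between plants nor the division of reads between gene copies. Transcript lengths were not used here, so ranks, parts and ratios between genes compare counts and not numbers of transcripts.

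Ratios between genes within a library do not depend on how libraries are scaled. The activase sum over the small subunit sum was 0.57, 0.54 and 0.61 in the resistant libraries of day 11 (inducer, biotype 1 alone, control), against 0.77, 0.79 and 0.47 in the susceptible libraries. At day 1 it was 0.72 with the inducer and 0.51 in the control of the resistant cultivar, against 0.54 and 0.59 in the susceptible cultivar. The ratio was thus highest in the 2 infested susceptible libraries of day 11 and in the library labelled as resistant day 1 inducer, and its whole range was 1.67-fold.

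Within the small subunit sum, Glyma.19G046800 kept a nearly constant part of the counts, 45.3% to 48.9%. The part of Glyma.13G046200 was 20.2% in the library labelled as resistant day 1 inducer, which had the lowest sum, and 28.9% in the library labelled as resistant day 1 control, which had the second highest sum, and Glyma.19G046600 took the converse (31.2% and 23.6%). The ratio of Glyma.13G046200 to Glyma.19G046600 was 0.65 in the first of these libraries and 1.23 in the second. Within the activase sum, Glyma.02G249600 took 14.3%, 10.7% and 10.3% in the resistant libraries of day 11 (inducer, biotype 1 alone, control), against 6.73%, 7.40% and 8.33% in the susceptible libraries, with no overlap between the labelled cultivars. At day 1 the parts were 9.02% and 8.81% in the resistant cultivar (inducer, control), against 8.59% and 11.3% in the susceptible cultivar, and the cultivars overlapped. The part of Glyma.02G249600 was singled out after its values were seen. How many other ratios between genes part the labelled cultivars in the same way was not counted. The division of reads between gene copies also enters these parts.

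**Figure D3:**
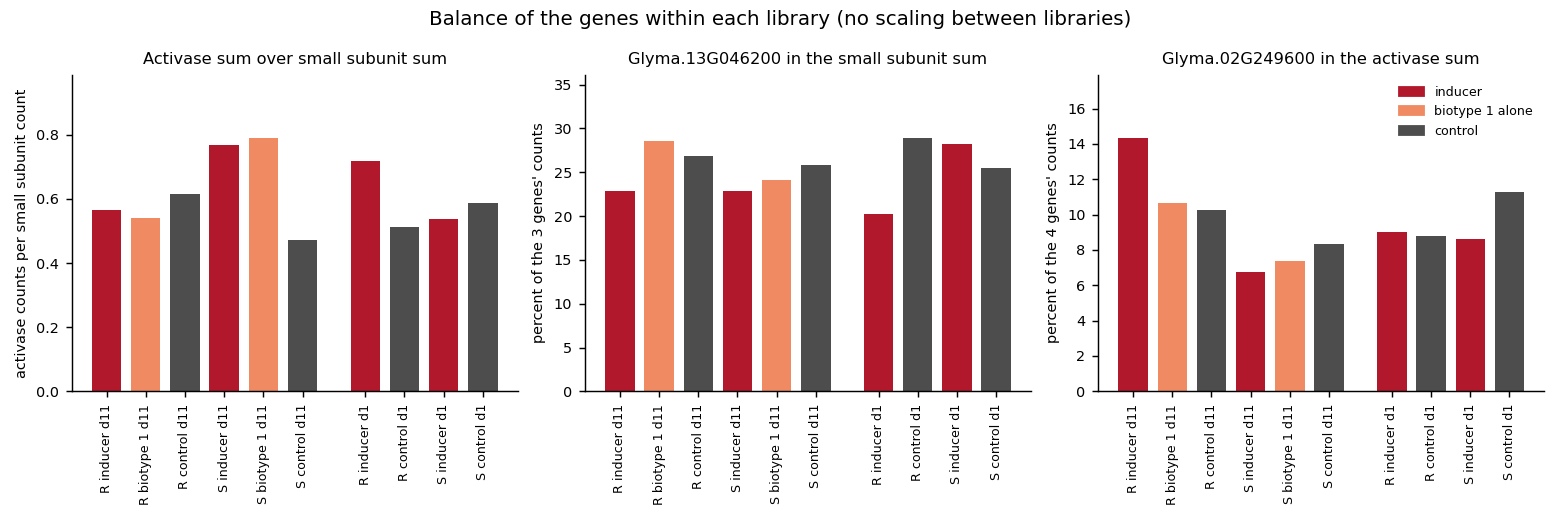
Bars show, for each library, the activase sum over the small subunit sum (left), the percent of small subunit counts taken by Glyma.13G046200 (middle) and the percent of activase counts taken by Glyma.02G249600 (right). The left panel is highest in the infested susceptible libraries of day 11 (0.77 and 0.79). In the right panel, chosen after its values were seen, the resistant (10.3% to 14.3%) and susceptible libraries (6.73% to 8.33%) do not overlap at day 11, but do at day 1.

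The comparison of inducer and control plants asks what a biotype 2 population, with biotype 1 added, does to the leaf. In the resistant cultivar at day 1, the inducer library lay at least 2-fold under the control for 6 of the 7 genes, where 8.49% of all retained genes were lower by that much. The CPM of Glyma.13G046200 in the inducer library was 0.198 times that in the control, the farthest of the 7 from 1, and that of Glyma.14G067000, the gene not past 2-fold, 0.866 times. In the same pair the median gene had a log2 ratio of 0.61, and with TMM-corrected sizes (median 0.03) again 6 genes lay at least 2-fold lower, where 17.4% of all genes did. These are the libraries with the highest and the lowest TMM factor. In the susceptible cultivar at day 1, all 7 genes were higher in the inducer library, between 1.06-fold (Glyma.14G067000) and 1.77-fold (Glyma.13G046200), and 0 of them by 2-fold, against 4.43% of all genes (1 gene with TMM-corrected sizes, against 6.47%). The median gene there had a log2 ratio of -0.23.

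At day 11 the resistant inducer library lay under its control for all 7 genes, with 0.592 times the small subunit sum and 0.545 times the activase sum. Of the 7 genes only Glyma.11G221000, at 0.476 times the control, was past 2-fold, where 7.73% of all genes were lower by that much. With TMM-corrected sizes 3 genes were past it, where 9.23% of all genes were. In the susceptible cultivar the inducer library of day 11 again had 0.592 times the small subunit sum of the control, but 0.965 times its activase sum. Glyma.18G036400 had 1.13 and Glyma.14G067000 1.05 times the control value there, the other 5 genes lay lower, and 0 were past 2-fold, where 9.05% of all genes were lower by that much.

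**Figure D4:**
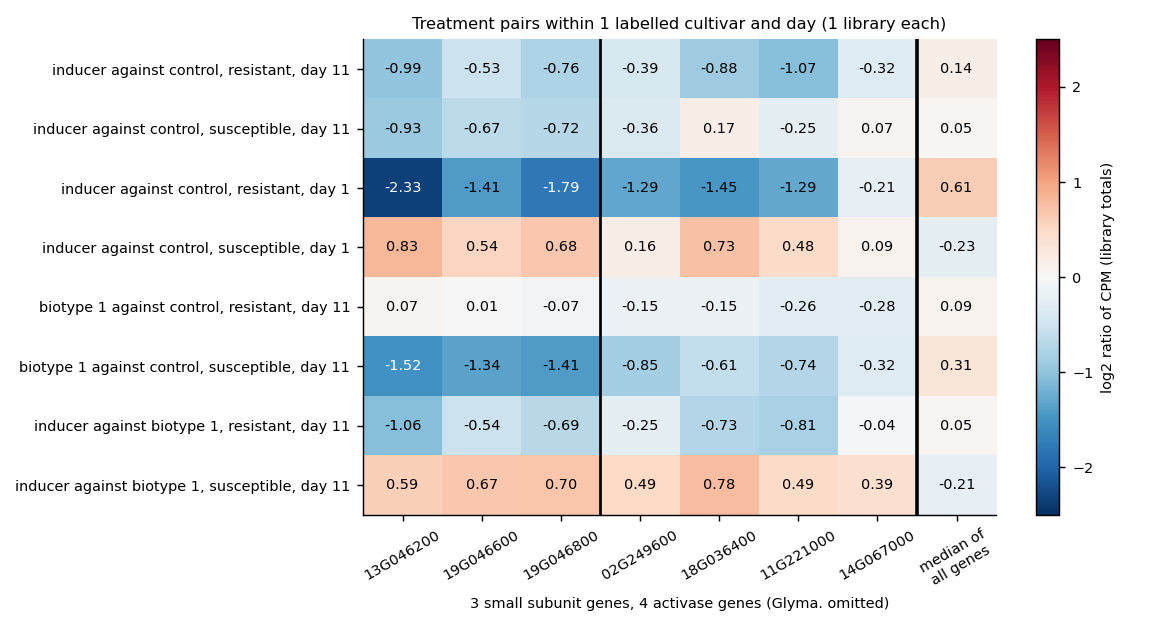
Cells give the log2 ratio of CPM between 2 libraries of 1 labelled cultivar and day that differ in treatment, for the 7 genes and, in the last column, the median of all retained genes. The row of the inducer against control in the resistant cultivar at day 1 runs from -2.33 to -0.21 beside a median of 0.61. The same comparison in the susceptible cultivar is above 0 for all 7 genes, beside a median of -0.23.

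Over all 10 libraries, edgeR's quasi-likelihood test with treatment, day, cultivar and the day by cultivar term gave estimates below 0 for all 7 genes for the inducer against control. They were -1.0 ± 0.74 on the log2 scale (standard error) for Glyma.13G046200, -0.79 ± 0.66 for Glyma.19G046800 and -0.67 ± 0.57 for Glyma.19G046600. The activase genes had -0.65 ± 0.54 (Glyma.11G221000), -0.60 ± 0.44 (Glyma.02G249600), -0.45 ± 0.61 (Glyma.18G036400) and -0.23 ± 0.28 (Glyma.14G067000). None of the 7 genes passed the threshold in edgeR, where Benjamini-Hochberg adjusted p lay between 0.758 and 0.871. Before adjustment p was 0.219 to 0.484, so that 0 of the 7 were under 0.05, and DESeq2 called 0 of them and 0.424% of the genes to which it gave an adjusted p. Of all 37468 genes edgeR called 0% and placed 2853 under 0.05 before adjustment, and the median gene had a log2 difference of 0.02 beside a median of -0.65 over the 7. Without the library labelled as susceptible day 1 control or the one labelled as susceptible day 1 inducer, the estimate of Glyma.13G046200 was -1.63 or -1.65 in edgeR, with unadjusted p of 0.048 or 0.0455 and adjusted p of 0.473 or 0.477. Without the library labelled as resistant day 1 control, the 7 estimates lay between -0.38 and 0.07, and without the one labelled as resistant day 1 inducer between -0.36 and 0.09, with Glyma.18G036400 above 0 in both.

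Biotype 1 alone was compared with control at day 11. In the susceptible cultivar all 7 genes were lower with biotype 1, and the 3 small subunit genes by at least 2-fold, where 5.55% of all genes were lower by that much. Their CPM were 0.348 (Glyma.13G046200), 0.396 (Glyma.19G046600) and 0.376 (Glyma.19G046800) times those of the control, and the activase sum was 0.626 times. The median gene had a log2 ratio of 0.31 in this pair, and 5 genes were past 2-fold with TMM-corrected sizes, where 8.92% of all genes were. In the resistant cultivar the small subunit sum with biotype 1 was 0.992 times and the activase sum 0.871 times the control, and 0 genes were past 2-fold, where 4.99% of all genes were lower by that much. Glyma.13G046200 and Glyma.19G046600, at 1.05 and 1.01 times the control, were below it with TMM-corrected sizes. In edgeR's fit over all libraries the 7 estimates lay between -0.83 ± 0.85 (Glyma.19G046800) and -0.48 ± 0.38 (Glyma.14G067000), with adjusted p between 0.963 and 0.969. Without the library labelled as susceptible day 11 biotype 1 they lay between -0.25 and 0.06. The fit called 0 of the 7 genes (0 under 0.05 before adjustment, and DESeq2 also 0) and 0% of all genes (1527 under 0.05 before adjustment, and 0.0294% called by DESeq2).

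The inducer against biotype 1 alone, at day 11, shows what the inducer adds on plants that all carry biotype 1. The cultivars lay on opposite sides for all 7 genes, although Glyma.14G067000 was nearly unchanged in the resistant cultivar (0.972 times). In the resistant cultivar the inducer library had 0.597 times the small subunit sum and 0.626 times the activase sum of the library with biotype 1 alone, and Glyma.13G046200 was past 2-fold at 0.480 times, where 6.65% of all genes were lower by that much. In the susceptible cultivar it had 1.58 times the small subunit sum and 1.54 times the activase sum, with folds from 1.31 (Glyma.14G067000) to 1.72 (Glyma.18G036400), and 0 genes were past 2-fold, where 5.18% of all genes were higher by that much. The edgeR estimates average the cultivars and take the inducer effect from both days, so they are not of day 11 alone. They lay between -0.22 ± 0.94 (Glyma.13G046200) and 0.26 ± 0.38 (Glyma.14G067000), with adjusted p of 1 for all 7 genes. Their median was 0.10, against 0.08 in a fit of the day 11 libraries only, which also called 0 of the 7. The fit called 0 of them (0 under 0.05 before adjustment, and DESeq2 also 0) and 0% of all genes (256 under 0.05 before adjustment, and 0.00534% called by DESeq2).

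Between the days, the controls of the cultivars differed in direction. The day 11 control had 0.663 times the small subunit sum and 0.797 times the activase sum of the day 1 control in the resistant cultivar, and 1.81 and 1.46 times in the susceptible cultivar. The inducer libraries went the other way, with 1.39 times the small subunit sum and 1.09 times the activase sum of day 1 in the resistant cultivar, and 0.668 and 0.956 times in the susceptible cultivar. In these 4 pairs 0 of the 7 genes were past 2-fold. By comparison, 9.5% of all genes were higher by that much between the inducer libraries and 4.49% lower between the controls in the resistant cultivar, against 10.2% lower between the inducer libraries and 13% higher between the controls in the susceptible cultivar. With TMM-corrected sizes 2 genes were past 2-fold in the resistant controls (7.25% of all genes) and 3 in the susceptible ones (15.7%). In view of the split of libraries by day and labelled cultivar, these ratios may hold a difference between cultivars as well as between days, and the 2 cannot be told apart here. Averaged over cultivars, edgeR's day estimates lay between -0.36 ± 0.68 (Glyma.13G046200) and 0.08 ± 0.28 (Glyma.14G067000), with 6 of the 7 below 0 and adjusted p of 1. The direction was not stable, as 4 were above 0 with library totals in place of TMM, and all 7 were without the library labelled as resistant day 1 control or without the one labelled as susceptible day 1 inducer. The fit called 0 of the 7 genes (0 under 0.05 before adjustment, and DESeq2 also 0) and 0% of all genes (378 under 0.05 before adjustment, and 0.016% called by DESeq2).

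Between the labelled cultivars, the resistant library had the lower small subunit sum in the inducer and control pairs of day 11 and in the inducer pair of day 1 (0.650, 0.650 and 0.314 times the susceptible library). It had the higher sum with biotype 1 alone at day 11 and in the control of day 1 (1.72 and 1.77 times). For the activase sum the 5 ratios in that order were 0.478, 0.846, 0.419, 1.18 and 1.55. In the inducer pair of day 1, 6 of the 7 genes were at least 2-fold lower (8.3% of all genes), and in that of day 11 Glyma.18G036400 and Glyma.11G221000 were (12.7%), whereas 0 were in the control pair of day 11 (15.1%). Glyma.13G046200 was at least 2-fold higher with biotype 1 alone (11.3% of all genes) and in the control of day 1 (5.04%), where 5 genes were past 2-fold with TMM-corrected sizes (9% of all genes). The edgeR estimates were below 0 for all 7 genes, between -0.43 ± 0.49 (Glyma.11G221000) and -0.11 ± 0.40 (Glyma.02G249600), with adjusted p of 1, and the fit called 0 of them (0 under 0.05 before adjustment, and DESeq2 also 0) and 0% of all genes (613 under 0.05 before adjustment, and 0.0187% called by DESeq2). Without the library labelled as resistant day 1 inducer, 5 of the 7 estimates were above 0, and Glyma.11G221000 and Glyma.14G067000 had -0.01 and -0.02. Without the one labelled as susceptible day 1 inducer 6 were above 0 (median 0.22). The median of the 7 was -0.83 without the library labelled as resistant day 1 control and -0.84 without the one labelled as susceptible day 1 control, against -0.39 with all libraries.

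The day by cultivar interaction is the day difference in the resistant cultivar minus that in the susceptible cultivar. Its term was put in the model because earlier results of these data showed that pattern in the residuals of the additive model. Its calls over all genes are thus no independent evidence of the pattern. Of the 6 comparisons, only for this did edgeR call any gene, 0.801% of all genes (300, of which 56 were above and 244 below 0, with 8734 under 0.05 before adjustment). It called 0 of the 7 Rubisco genes, with 0 under 0.05 before adjustment, and DESeq2 also called 0 of them, and 11.7% of all genes. Their estimates were above 0 for Glyma.02G249600 (0.50 ± 0.80), Glyma.13G046200 (0.36 ± 1.32) and Glyma.19G046800 (0.07 ± 1.17) and below 0 for the other 4, the lowest being Glyma.11G221000 (-0.40 ± 0.96). Adjusted p values in edgeR lay between 0.733 and 0.978. The small subunit shares of the 5 libraries that combine day 11 with the susceptible label or day 1 with the resistant one (1.13% to 4.05% of counts) enclosed those of the other 5 libraries (1.56% to 3.59%). The count over all genes rested on single libraries, as it was 8123 without the library labelled as resistant day 1 control and between 70 and 257 without any 1 of the others.

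**Figure D5:**
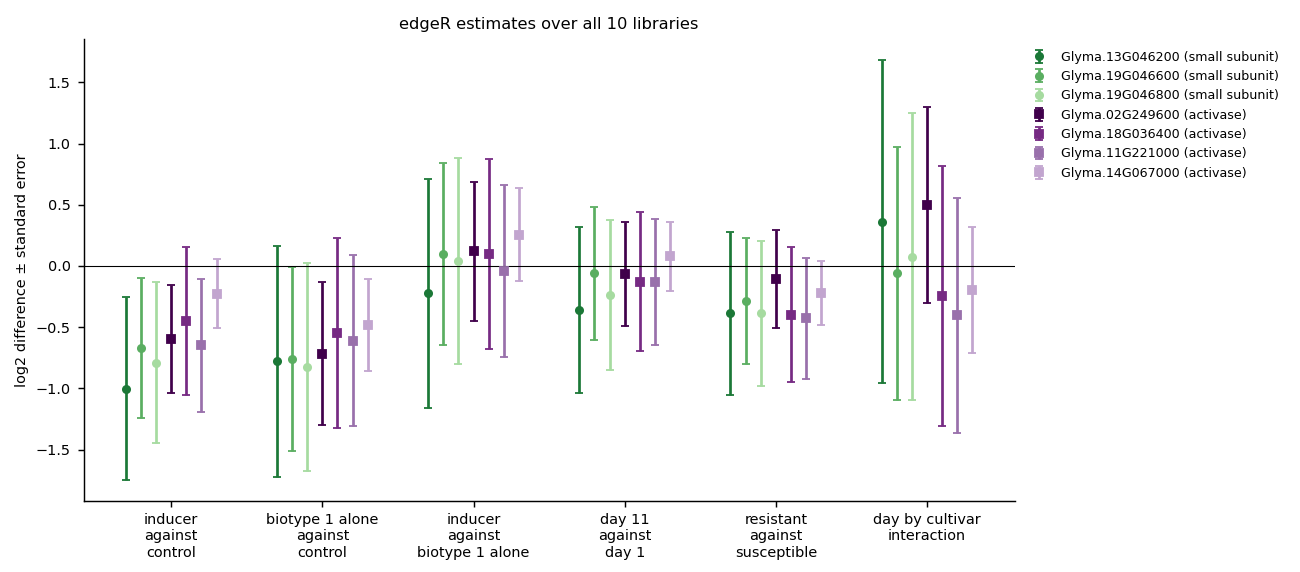
Points give edgeR's log2 difference of each gene in the 6 comparisons over all 10 libraries, and bars 1 standard error on either side (circles for small subunit genes, squares for activase genes). All 7 genes lie below 0 for the inducer against control (-1.0 to -0.23) and for biotype 1 alone against control (-0.83 to -0.48), with errors of similar size and 0 genes called.

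The genes whose log2 CPM over the 10 libraries was most like the small subunit sum, among 3409 other genes averaging 50 CPM or more, were Glyma.08G115600 (r of 0.985, 60.1 to 124 CPM), Glyma.18G021500 (0.984, 47.0 to 101 CPM) and Glyma.16G044900 (0.982, 923 to 2607 CPM). Of these genes, 3.52% had r of at least 0.9 with that sum. For the activase sum they were Glyma.07G142700 (0.964, 270.3 to 630 CPM), Glyma.05G066100 (0.949, 58.9 to 249 CPM) and Glyma.19G190800 (0.938, 56.5 to 269 CPM), and 0.704% of the genes reached 0.9. The reference table used here gives no names for these identifiers. The small subunit and activase sums had r of 0.93 with each other. All these coefficients are over 10 libraries with the same denominators, in which the library labelled as resistant day 1 inducer is low for both sums.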

How the data were processed

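The authors trimmed the reads with Trimmomatic 0.36 and quantified them with Salmon 0.9.1 on the Wm82.a2.v1 primary transcripts, and deposited estimated counts for 55983 genes, unscaled for library size or length, with 45.9% to 50% of values in a library not whole. How Salmon was set for strand and bias is not given in the sources used here. Values were then rounded to whole numbers. CPM used the library totals. Genes over 0.5 CPM in at least 1 library were tested with edgeR 4.0.16 in R 4.3.3 (TMM, robust quasi-likelihood test, Benjamini-Hochberg adjustment, threshold 0.05) on treatment, cultivar, day and day by cultivar, which left 4 residual degrees of freedom. DESeq2 1.42.0, other scaling, other low-count filters, an additive model, the day 11 libraries alone and leaving out each library were alternatives. The ratios between days and between cultivars and the shares over TMM sizes were added after seeing the data. The fits were also run on simulated data with larger effects than those estimated for the 7 genes and less spread than in the data. That run therefore does not show whether differences of the size seen here could be detected. Pairs of libraries were compared by the ratio of CPM without a test, and called at 2-fold. With 1 pooled library a condition, the pairs have no replicate. A count of 3, the detection limit, was 0.117 to 0.128 CPM, far below every value reported.

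The 7 genes, the model and the lists were chosen with earlier results of these data known. All 7 are named, with the 3 most similar other genes for each sum. As 0 identifiers matched the reference table (assembly Glycine_max_v4.0, without sequences), the planned gene lists were not run. They were of other small subunit and activase copies, other Calvin cycle genes, Rubisco assembly factors and tissue markers. The planned sequence and promoter comparisons were not run either. The figures were drawn with matplotlib 3.10.9.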

Additional observations from a re-analysis of the deposited data

Results flagged for a closer look

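In several comparisons the labelled cultivars, or the days, lay on opposite sides by more than counting error. Each value below is the difference of 2 log2 ratios of CPM, each from 1 library against 1 library, and the difference itself was not tested. Cultivars and days are as labelled, and the doubt about the labels given above reaches these differences.

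For the inducer against control at day 1, all 7 genes were lower with the inducer in the resistant and higher in the susceptible cultivar. By CPM the median gene was itself opposite, the other way around, at 0.61 in the resistant and -0.23 in the susceptible cultivar. With TMM-corrected sizes these medians were 0.03 and -0.02. The log2 ratio in the resistant minus that in the susceptible cultivar was -3.16 for Glyma.13G046200, -1.95 for Glyma.19G046600 and -2.46 for Glyma.19G046800 among the small subunit genes. Among the activase genes it was -1.46 for Glyma.02G249600, -2.19 for Glyma.18G036400, -1.76 for Glyma.11G221000 and -0.30 for Glyma.14G067000. The resistant pair holds the libraries with the highest and the lowest TMM factor (1.15 with the inducer, 0.772 in the control). With TMM-corrected sizes the cultivars were again opposite for all 7 genes and lay farther apart, by -3.95, -2.74 and -3.26 for the small subunit genes and -2.25, -2.98, -2.56 and -1.09 for the activase genes in the order given.

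For the inducer against biotype 1 alone at day 11, all 7 genes again lay lower in the resistant and higher in the susceptible cultivar. Glyma.14G067000 was nearly unchanged in the resistant cultivar, with a log2 ratio of -0.04. By CPM the median gene had 0.05 in the resistant and -0.21 in the susceptible cultivar. The differences were -1.65 (Glyma.13G046200), -1.21 (Glyma.19G046600), -1.39 (Glyma.19G046800), -0.74 (Glyma.02G249600), -1.51 (Glyma.18G036400), -1.30 (Glyma.11G221000) and -0.43 (Glyma.14G067000, -0.70 with TMM-corrected sizes). For the inducer against control at day 11, the cultivars were opposite for Glyma.18G036400 (-1.05) and Glyma.14G067000 (-0.40) only. For biotype 1 alone against control they were opposite for Glyma.13G046200 (1.60), where the resistant ratio was 0.07, and -0.01 with TMM-corrected sizes.

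In the susceptible cultivar the inducer against control lay lower at day 11 and higher at day 1 for 5 genes. The log2 ratio of day 11 minus that of day 1 was -1.76 for Glyma.13G046200, -1.21 for Glyma.19G046600, -1.39 for Glyma.19G046800, -0.52 for Glyma.02G249600 (-0.79 with TMM-corrected sizes) and -0.73 for Glyma.11G221000.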

How the results depend on the processing

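In 0 of 98 combinations of an alternative setting and a comparison was any of the 7 genes called. The genes called over the whole table moved more. DESeq2's Wald test called 131 (inducer against control), 11 (biotype 1 alone against control), 2 (inducer against biotype 1 alone), 6 (day), 7 (cultivar) and 4389 (interaction), where edgeR called 300 for the interaction and 0 for the others, and without a low-count filter edgeR called 468 for the interaction. Leaving out 1 library at a time, it called 0 to 14 genes for the cultivar (14 without the library labelled as resistant day 1 inducer) and 70 to 8123 for the interaction. The cause was not tested. A fit that leaves a condition without its library takes its spread from the others.

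With TMM-corrected sizes 3 genes, in place of 1, were past 2-fold for the inducer against control in the resistant cultivar at day 11, 1 in place of 0 in the susceptible cultivar at day 1, and 5 in place of 3 for biotype 1 alone in the susceptible cultivar. The range of the small subunit share was 3.68-fold without the 10 largest other genes and 5.26-fold over TMM sizes. That of activase was 2.59-fold and 3.75-fold, and that of the 7 genes together 3.20-fold and 4.63-fold. The last of each pair was added after seeing the data.

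Of the refitted log2 differences, 598 kept and 88 changed their sign, 5 of them with library totals in place of TMM, namely Glyma.19G046800 for the inducer against biotype 1 alone (-0.0069), Glyma.19G046600 (0.071), Glyma.02G249600 (0.053) and Glyma.18G036400 (0.0062) for the day, and Glyma.19G046600 for the interaction (0.13). The other sign changes came from leaving out 1 library, and their genes had these lowest and highest values. For the inducer against control they were -0.92 to 0.086 (Glyma.18G036400), and for biotype 1 alone against control -1.78 to 0.063 (Glyma.13G046200) and -1.19 to 0.021 (Glyma.18G036400). For the inducer against biotype 1 alone they were -1.05 to 0.79 (Glyma.13G046200), -0.33 to 0.61 (Glyma.02G249600), -0.59 to 0.91 (Glyma.19G046600), -0.69 to 0.89 (Glyma.19G046800), -0.58 to 0.52 (Glyma.11G221000) and -0.49 to 0.71 (Glyma.18G036400). For the day they were -0.75 to 0.59 (Glyma.13G046200), -0.39 to 0.46 (Glyma.02G249600), -0.39 to 0.55 (Glyma.19G046600), -0.60 to 0.51 (Glyma.19G046800), -0.46 to 0.43 (Glyma.11G221000), -0.089 to 0.29 (Glyma.14G067000) and -0.49 to 0.57 (Glyma.18G036400). For the cultivar they were -1.08 to 0.37 (Glyma.13G046200), -0.57 to 0.29 (Glyma.02G249600), -0.76 to 0.23 (Glyma.19G046600), -0.95 to 0.22 (Glyma.19G046800), -0.84 to 0.036 (Glyma.11G221000) and -0.94 to 0.12 (Glyma.18G036400). For the interaction they were -1.17 to 1.77 (Glyma.13G046200), -0.24 to 1.43 (Glyma.02G249600), -1.08 to 0.88 (Glyma.19G046600), -1.16 to 1.22 (Glyma.19G046800), -1.42 to 0.50 (Glyma.11G221000), -0.57 to 0.20 (Glyma.14G067000) and -1.30 to 0.98 (Glyma.18G036400). The remaining differences kept their sign under every alternative run.

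Replicates could not be paired between conditions because each condition had 1 library. The model itself sets treatments against each other within day and cultivar. Depth does not limit these genes, since the smallest count was 8737, but pooled libraries leave the spread between plants unmeasured.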
